A study of Arabidopsis thaliana with 18 samples.

Results

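The roots of sog1-1 rab8d-2 seedlings of Arabidopsis thaliana were set against wild-type (WT) roots over all genes, to see which RNA differences of a plastid translation defect are present when SOG1 is mutated as well. The comparison takes 3 libraries of each genotype, 6 of the 18 libraries of the series, all made from poly(A) RNA of roots of 4-day-old seedlings grown without treatment in days of 16 h light and 8 h dark. The sog1-1 rab8d-2 seedlings carry mutant alleles of RAB8D and of SOG1. The rab8d-2 seedlings, given beside them, carry the same RAB8D allele, and the WT is Col. The rab8d-2 libraries are named by their titles, since their genotype field reads as wild type. A sog1-1 single mutant was not analysed here, so what sog1-1 does by itself and what it does in rab8d-2 cannot be told apart. The labels number the libraries of a genotype 1 to 3 and do not give their plants' origin, so a p-value speaks only for the spread among libraries, which may be technical.

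RAB8D is the plastid elongation factor EF-Tu, which brings aminoacyl-tRNA to the plastid ribosome. Plastids signal their state to the nucleus, and in leaves a block of plastid translation is known to lower the nuclear genes for photosynthesis. SOG1 is a plant NAC transcription factor that the kinase ATM phosphorylates after DNA breaks. It is known to switch on repair genes such as BRCA1, the cyclin-dependent kinase inhibitors SMR5 and SMR7, and the related factors NAC044 and NAC085, which hold cells before mitosis.

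RAB8D (AT4G20360, named RABE1b in the reference annotation) was low in the double mutant. Its normalised counts (CPM, counts scaled to library size) were 14.8, 10.8 and 14.0 in the sog1-1 rab8d-2 libraries, 11.6, 11.7 and 10.9 in the rab8d-2 libraries, and 93.1, 89.7 and 87.9 in the WT libraries. The libraries of both mutants lay far below those of WT, by a log2 fold change of -2.77 ± 0.06 in sog1-1 rab8d-2 (± is the standard error, n = 3 per group throughout, adjusted p = 1.05e-37). SOG1 (AT1G25580) had 29.7, 27.9 and 30.6 CPM in sog1-1 rab8d-2 and 29.3, 30.3 and 31.5 CPM in WT, overlapping ranges with no call (-0.05 ± 0.05, adjusted p = 0.458). The sog1-1 allele is known as a missense change, so the level of its RNA gives no check of that label.

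Of 19981 genes tested, 5764 (28.8%) had a higher level in sog1-1 rab8d-2 than in WT and 5837 (29.2%) a lower one at an adjusted p under 0.05. At least 2-fold changes made up 989 genes higher (4.95%) and 658 lower (3.29%), and the median log2 fold change of all genes was -0.01. For rab8d-2 against WT the counts were 6325 higher (31.7%) and 6568 lower (32.9%), and for sog1-1 rab8d-2 against rab8d-2 they were 5725 higher (28.7%) and 5194 lower (26%). The first pair of comparisons shares its WT libraries, so the values of each are given side by side with no measure of likeness between them. Library totals lay between 20103634 and 20471203 estimated counts, and the biological coefficient of variation was 2.38%, so that small differences pass the test. The shares above are the background for every list count that follows, and a list with a like share of called genes is not set apart by its count.

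The DNA damage response genes were split in the double mutant. Of 25 listed genes, 11 were higher and 8 lower than in WT, with a median log2 fold change of -0.11, beside backgrounds of 28.8% and 29.2% of all genes. In rab8d-2 against WT, 22 of the same 25 were higher and 0 lower, with a median of 0.69 (backgrounds 31.7% and 32.9%). Set directly against rab8d-2, the double mutant had 0 higher and 22 lower, with a median of -0.55 (backgrounds 28.7% and 26%).

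**Figure D1:**
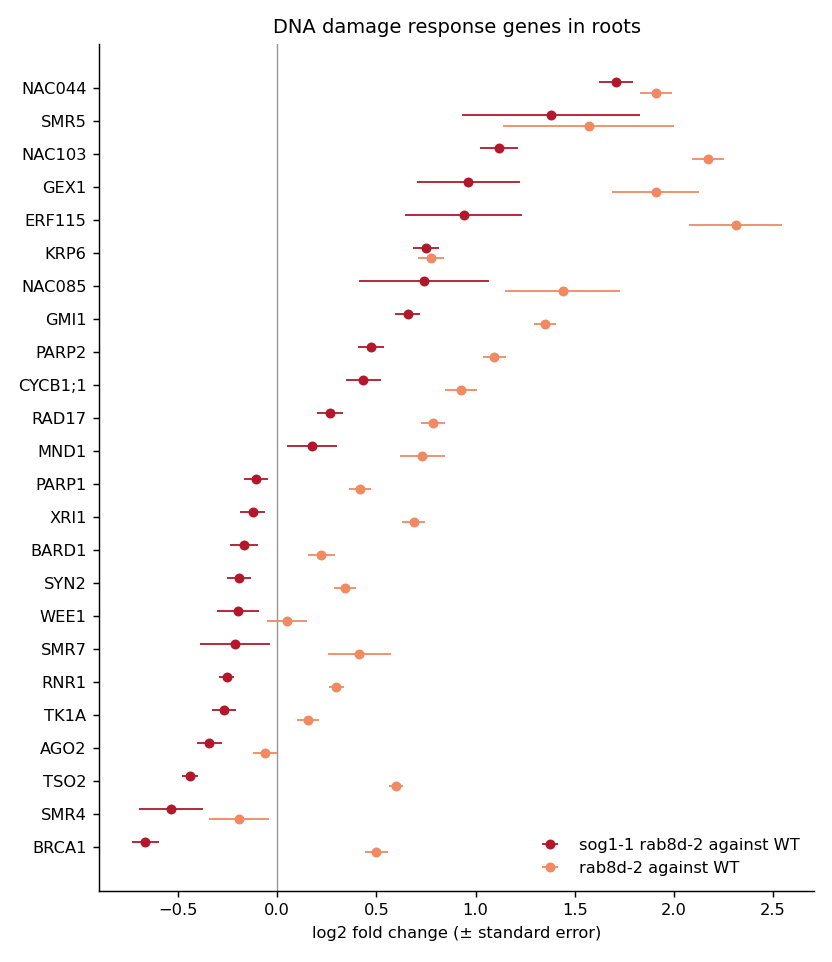
Log2 fold change against WT (horizontal axis) of DNA damage response genes in sog1-1 rab8d-2 (dark red) and rab8d-2 (orange), with standard errors, ordered by the value in the double mutant. NAC044, SMR5 and NAC103 stand at the top with 1.71, 1.38 and 1.12 in sog1-1 rab8d-2, and BRCA1 at the bottom with -0.67.

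The genes of the list that were lower than in WT included BRCA1 and 2 subunits of ribonucleotide reductase. BRCA1, a ubiquitin ligase of recombination repair, had 11.96, 12.73 and 12.06 CPM in sog1-1 rab8d-2, 28.8, 27.2 and 26.4 CPM in rab8d-2, and 17.995, 20.28 and 20.02 CPM in WT. All 3 libraries of the double mutant were below all 3 of WT, while those of rab8d-2 were above (sog1-1 rab8d-2 against WT -0.67 ± 0.07, adjusted p = 7.06e-12; rab8d-2 against WT 0.50 ± 0.06, adjusted p = 1.44e-10). TSO2, a small subunit of ribonucleotide reductase, which makes deoxynucleotides, had 52.1, 55.9 and 50.2 CPM in sog1-1 rab8d-2, 110.1, 109.6 and 105.0 CPM in rab8d-2, and 70.9, 69.9 and 73.8 CPM in WT. The same order held for it, with the double mutant lowest (-0.44 ± 0.04 against WT, adjusted p = 1.6e-13). RNR1, the large subunit, was also lower than in WT (-0.25 ± 0.04, adjusted p = 1.45e-07), as were the thymidine kinase TK1A (-0.27 ± 0.06), the cohesin subunit SYN2 (-0.19 ± 0.06) and AGO2 (-0.34 ± 0.06). AGO2 (AT1G31280) lies on chromosome 1, as SOG1 does, and was not called in rab8d-2 against WT (-0.06 ± 0.06). Whether its place on that chromosome, described below, plays a part was not tested. SYN2 lost its call without sog1-1 rab8d-2 replicate 3 (-0.15, adjusted p = 0.0525).

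Some members of the list did not pass the test against WT. XRI1, a gene known to be induced by X-rays, had 15.2, 15.8 and 15.4 CPM in sog1-1 rab8d-2, 25.8, 27.8 and 27.8 CPM in rab8d-2, and 16.1, 16.9 and 17.5 CPM in WT. The double mutant lay just below WT without a call (-0.12 ± 0.06, adjusted p = 0.0949), and rab8d-2 lay far above both. The poly(ADP-ribose) polymerase PARP1 (-0.11 ± 0.06, adjusted p = 0.136) and MND1 (0.18 ± 0.13, adjusted p = 0.232) were not called either. All 3 were called higher in rab8d-2 than in WT, XRI1 by 0.69 ± 0.06, PARP1 by 0.42 ± 0.06 and MND1 by 0.73 ± 0.11. PARP1 was called lower against WT once WT replicate 2 was left out (-0.16, adjusted p = 0.043). BARD1, the partner of BRCA1, was close to the threshold (-0.17 ± 0.07, adjusted p = 0.04) and lost its call without sog1-1 rab8d-2 replicate 1 or 2 or WT replicate 2 or 3 (-0.10 to -0.18, adjusted p = 0.06 to 0.265), and also with DESeq2 (adjusted p = 0.106), upper quartile scaling, no filter or the compared genotypes alone.

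Other genes of the list were above WT and below rab8d-2. NAC103, a NAC factor known to act in the damage response and in the unfolded protein response, had 10.8, 9.88 and 10.8 CPM in sog1-1 rab8d-2, 22.4, 22.0 and 21.2 CPM in rab8d-2, and 4.65, 4.98 and 4.92 CPM in WT. The 3 genotypes formed 3 separate ranges, with the double mutant between the others (1.12 ± 0.10 against WT, adjusted p = 3.59e-14; -1.05 ± 0.07 against rab8d-2, adjusted p = 7.15e-18). GMI1, a gene known to be induced by gamma rays, had 26.5, 30.5 and 27.5 CPM in sog1-1 rab8d-2, 45.3, 45.6 and 45.4 CPM in rab8d-2, and 17.9, 17.8 and 17.8 CPM in WT (0.66 ± 0.06 against WT, adjusted p = 1.23e-12). PARP2 (0.47 ± 0.06), the clamp loader RAD17 (0.27 ± 0.07), the cyclin CYCB1;1, which accumulates in cells held before mitosis (0.43 ± 0.09), GEX1 (0.96 ± 0.26) and the regeneration factor ERF115 (0.94 ± 0.29) were also higher than in WT. Each of these 7 genes was lower in the double mutant than in rab8d-2, by -0.49 ± 0.08 for CYCB1;1 to -1.37 ± 0.20 for ERF115. ERF115 and GEX1 are low in these roots, with 1.03 ± 0.19 and 1.47 ± 0.22 CPM in sog1-1 rab8d-2 (SD, n = 3).

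NAC044, KRP6 and SMR5 were above WT with a small or uncalled difference from rab8d-2. NAC044 had 17.2, 17.2 and 16.3 CPM in sog1-1 rab8d-2, 19.7, 18.8 and 19.8 CPM in rab8d-2, and 5.15, 5.89 and 4.47 CPM in WT. Both mutants lay more than 2-fold above WT (1.71 ± 0.08 in sog1-1 rab8d-2, adjusted p = 7.34e-23, and 1.91 ± 0.08 in rab8d-2), and the direct difference between them was small but called (-0.20 ± 0.06, adjusted p = 0.00521). KRP6, a cyclin-dependent kinase inhibitor, had 26.4, 28.3 and 24.5 CPM in sog1-1 rab8d-2, 28.5, 27.8 and 24.5 CPM in rab8d-2, and 15.3, 15.7 and 16.2 CPM in WT. Its 2 mutant ranges overlapped and both were above WT (0.75 ± 0.07, adjusted p = 9.21e-14), with a direct difference of -0.03 ± 0.06 (adjusted p = 0.706). SMR5 was higher than in WT too (1.38 ± 0.45, adjusted p = 0.00765), at only 0.575 ± 0.129 CPM in sog1-1 rab8d-2 and 0.217 ± 0.0282 CPM in WT (SD, n = 3), and its direct difference from rab8d-2 was -0.19 ± 0.34. NAC085 was just past the threshold against WT (0.74 ± 0.33, adjusted p = 0.0496) and lower than in rab8d-2 (-0.70 ± 0.26, adjusted p = 0.0198). Its call against WT was lost without sog1-1 rab8d-2 replicate 2 or 3, WT replicate 2 or 3, or rab8d-2 replicate 1, with log2 fold changes of 0.55 to 0.82 and adjusted p values of 0.0515 to 0.192, and also with RLE scaling (adjusted p = 0.0501) and DESeq2 (adjusted p = 0.0787).

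**Figure D2:**
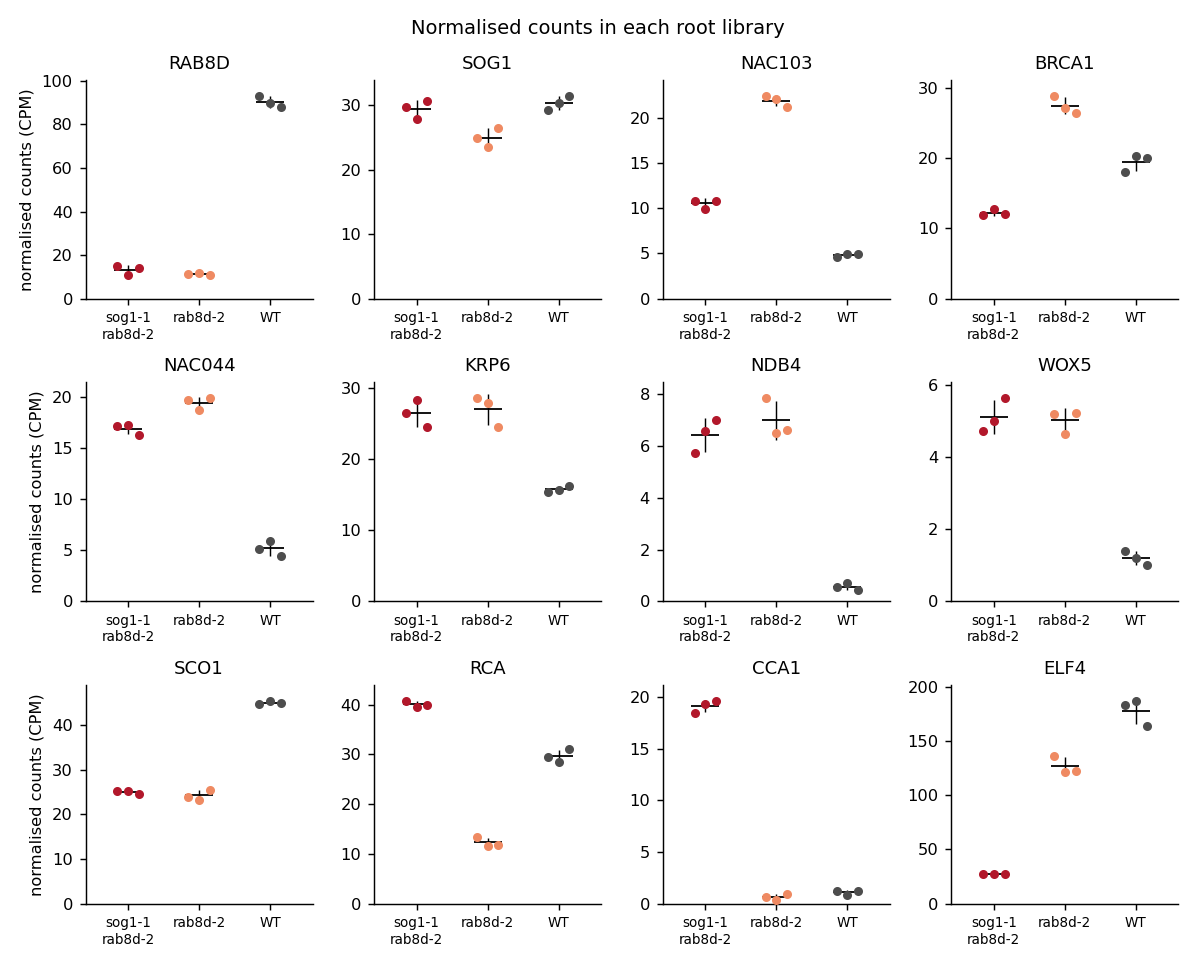
Normalised counts (CPM, vertical axes from 0) of 12 genes in each library of sog1-1 rab8d-2, rab8d-2 and WT, with the mean as a bar and the SD as a line (n = 3 per group). BRCA1 lies below WT in the double mutant, NAC103 between rab8d-2 and WT, and NAC044, KRP6, NDB4 and WOX5 near their rab8d-2 level, while CCA1 and ELF4 lie away from both other genotypes.

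Listed genes of G2 and mitosis were lower than in WT or not called. The list for G2 and mitosis has 25 genes, of which 0 were higher and 13 lower than in WT (median -0.18, beside 28.8% and 29.2% of all genes), and in rab8d-2 against WT 6 were higher and 4 lower (median 0.07, beside 31.7% and 32.9%). CYCB1;1, counted in the damage list, was higher, as given above. CDKB2;1, a mitotic cyclin-dependent kinase, had 27.3, 28.0 and 28.0 CPM in sog1-1 rab8d-2, 29.5, 29.5 and 33.5 CPM in rab8d-2, and 41.0, 37.8 and 41.8 CPM in WT (-0.53 ± 0.05, adjusted p = 4.64e-12). CYCB2;3, a mitotic cyclin, was lower than in either other genotype, at 18.2 ± 0.797 CPM in sog1-1 rab8d-2, 26.7 ± 1.23 CPM in rab8d-2 and 26.0 ± 1.95 CPM in WT (SD, n = 3; -0.52 ± 0.06 against WT and -0.56 ± 0.06 against rab8d-2). The cytokinesis syntaxin KNOLLE (SYP111) was lower by -0.32 ± 0.05. One member of the list was called higher when sog1-1 rab8d-2 replicate 2 was left out or when upper quartile scaling was used, so the count of 0 does not hold in every setting. In bulk roots, fewer cells of a type and less RNA per cell cannot be told apart.

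Of 18 S phase genes, 2 were higher and 5 lower than in WT (median -0.10), against 12 higher and 0 lower in rab8d-2 (median 0.19). The 5 lower genes are a share near the 29.2% of all genes, so that count does not set the list apart. RNR2A, another small subunit of ribonucleotide reductase, stayed high, with 24.5, 24.4 and 26.6 CPM in sog1-1 rab8d-2, 27.0, 25.8 and 29.2 CPM in rab8d-2, and 17.2, 17.5 and 16.2 CPM in WT (0.57 ± 0.07, adjusted p = 2.49e-10). The helicase subunit MCM4 was lower than in WT (-0.22 ± 0.05, adjusted p = 0.000383). Both S phase counts were fragile, with 1 to 2 higher and 1 to 5 lower when each library was left out in turn. Without sog1-1 rab8d-2 replicate 1, sog1-1 rab8d-2 replicate 3, WT replicate 1 or WT replicate 2 only 1 was higher, and without sog1-1 rab8d-2 replicate 2 or 3 or WT replicate 1 or 2 between 1 and 3 were lower.

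Damage sensing and recombination genes differed little from WT. Of 8 sensing genes 1 was higher and 1 lower, and the lower count ran from 0 to 2 when WT replicate 1, WT replicate 3 or sog1-1 rab8d-2 replicate 3 was left out. The kinase ATM had 46.7 ± 0.831 CPM in sog1-1 rab8d-2, 53.7 ± 3.02 CPM in rab8d-2 and 43.3 ± 1.57 CPM in WT (0.11 ± 0.05, adjusted p = 0.0359), a call lost without sog1-1 rab8d-2 replicate 1 or 3 or WT replicate 2 (adjusted p = 0.0707 to 0.158) and with DESeq2 (adjusted p = 0.0934). Of 17 recombination and end joining genes 2 were higher and 3 lower, with 1 lower when sog1-1 rab8d-2 replicate 1 was left out. HOP2 (AHP2), which works with MND1 in recombination, kept a level between the other genotypes, at 5.57 ± 0.506 CPM in sog1-1 rab8d-2, 8.75 ± 0.621 CPM in rab8d-2 and 3.68 ± 0.706 CPM in WT (0.60 ± 0.13 against WT, adjusted p = 0.000111).

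The 21 cyclin-dependent kinase inhibitors showed no common direction, with 3 higher, 4 lower and 14 not called against WT. KRP6 and SMR5 were described above, and the other gene that was higher was LGO (0.16 on the log2 scale). KRP1 (ICK1) was lower in both mutants, with 6.78 ± 0.548 CPM in sog1-1 rab8d-2, 5.54 ± 0.461 CPM in rab8d-2 and 11.6 ± 0.609 CPM in WT (-0.77 ± 0.09, adjusted p = 1.32e-09). SMR7 was not called against WT (-0.21 ± 0.18, adjusted p = 0.316). Of 8 genes of endoreduplication, the rounds of DNA synthesis without division, 2 were higher and 3 lower, and the higher count fell as low as 0 when sog1-1 rab8d-2 replicate 1 or 3 or WT replicate 2 or 3 was left out. CCS52B (FZR3), an activator of the anaphase-promoting complex, was lower (-0.45 ± 0.05, adjusted p = 1.22e-09).

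Nuclear genes for photosynthesis were lower than in WT by less than in rab8d-2. Of 34 listed genes 27 passed the filter on low counts. In sog1-1 rab8d-2 against WT, 4 were higher and 15 lower, with a median of -0.33, and in rab8d-2 against WT 1 was higher and 24 lower, with a median of -1.65. Set directly against rab8d-2, the double mutant had 22 higher and 0 lower, with a median of 0.98. Photosynthesis genes are expressed at a low level in roots.

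The light-harvesting gene LHB1B2 had 13.6, 14.2 and 13.4 CPM in sog1-1 rab8d-2, 1.54, 1.60 and 1.25 CPM in rab8d-2, and 28.9, 24.8 and 27.1 CPM in WT, each genotype apart from the others (-0.97 ± 0.07 against WT, adjusted p = 4.48e-17; 3.23 ± 0.13 against rab8d-2). PSBO1, of the oxygen-evolving complex, had 17.58, 21.03 and 19.51 CPM in sog1-1 rab8d-2, 4.72, 4.25 and 5.80 CPM in rab8d-2, and 25.1, 24.5 and 23.2 CPM in WT (-0.33 ± 0.07 against WT, adjusted p = 6.66e-05). The photosystem I antenna gene LHCA4 was not called against WT, at 28.2 ± 1.42 CPM in sog1-1 rab8d-2, 9.24 ± 0.569 CPM in rab8d-2 and 28.1 ± 1.18 CPM in WT. RCA, the activase of Rubisco, was above WT in the double mutant and below it in rab8d-2, with 40.7, 39.5 and 40.0 CPM in sog1-1 rab8d-2, 13.4, 11.6 and 11.9 CPM in rab8d-2, and 29.4, 28.4 and 31.1 CPM in WT (0.44 ± 0.05, adjusted p = 5.2e-10). PSAK, a subunit of photosystem I, was the exception among the members named here. It had 3.90, 4.02 and 3.90 CPM in sog1-1 rab8d-2, 4.381, 4.495 and 3.786 CPM in rab8d-2, and 16.2, 16.1 and 13.6 CPM in WT (-1.96 ± 0.10 against WT, adjusted p = 5.58e-22; -0.10 ± 0.13 against rab8d-2, adjusted p = 0.55).

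The largest increases in this list rest on few reads and on gene copies. RBCS3B, a small subunit of Rubisco, had 48 counts over the 3 sog1-1 rab8d-2 libraries, 27 in rab8d-2 and 0 in WT. LHCB2.1 had 61 counts in sog1-1 rab8d-2 and 3 in WT, a ratio of 20.6 with a 95% exact binomial interval of 6.72 to 103 that covers counting error only. Both have near-identical copies in the genome, between which reads may be split. Their directions are uncertain for that reason.

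Chlorophyll synthesis genes were low in the double mutant as well. Of 15 listed genes 11 were tested, 1 was higher and 9 were lower than in WT (median -0.89), against 0 higher and 10 lower in rab8d-2 (median -0.90). Against rab8d-2 itself, the double mutant had 8 higher and 1 lower (median 0.49, beside 28.7% and 26% of all genes). GUN5, the large subunit of the magnesium chelatase, had 19.2, 18.9 and 20.5 CPM in sog1-1 rab8d-2, 8.47, 7.44 and 7.76 CPM in rab8d-2, and 36.5, 34.2 and 38.1 CPM in WT (-0.89 ± 0.06, adjusted p = 1.57e-18). CRD1 (3.52 ± 0.286 CPM in sog1-1 rab8d-2, 1.20 ± 0.479 CPM in rab8d-2 and 11.7 ± 0.639 CPM in WT) and the factor GLK2, which drives photosynthesis genes (8.00 ± 0.593, 2.50 ± 0.284 and 12.4 ± 1.05 CPM in the same order), had the same graded pattern. CHLD (ALB1), another chelatase subunit, was lowest in the double mutant, with 17.18, 17.57 and 16.88 CPM in sog1-1 rab8d-2, 24.5, 24.8 and 24.9 CPM in rab8d-2, and 37.0, 37.1 and 38.0 CPM in WT (-1.12 ± 0.05 against WT; -0.52 ± 0.06 against rab8d-2, adjusted p = 1.23e-10).

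**Figure D3:**
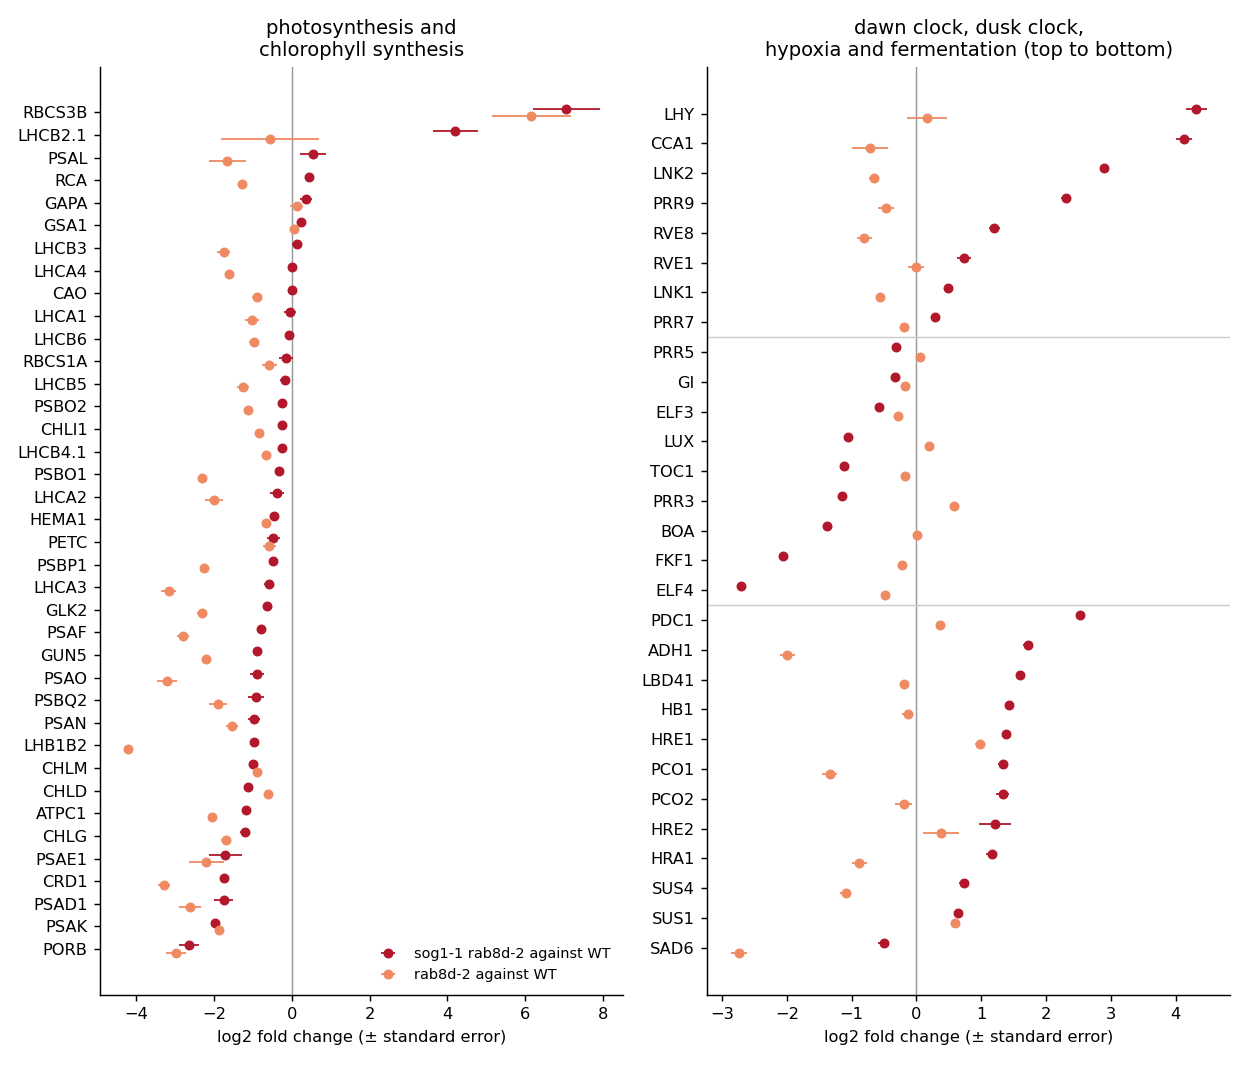
Log2 fold change against WT (horizontal axes, standard errors as lines) in sog1-1 rab8d-2 (dark red) and rab8d-2 (orange). On the left, photosynthesis and chlorophyll genes lie nearer 0 in the double mutant than in rab8d-2, except LHCB2.1, PSAK, RBCS3B, GAPA, GSA1, CHLD and CHLM; on the right, the 8 dawn clock genes lie above 0 and the 9 dusk clock genes below 0 in sog1-1 rab8d-2, and 11 of 12 hypoxia genes lie above 0.

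The genes of the plastid's own translation machinery stayed low. Of 27 nuclear genes that supply plastid ribosomes and their translation factors, 1 was higher and 20 lower than in WT (median -0.33), and in rab8d-2 1 was higher and 17 lower (median -0.21). SCO1, the plastid elongation factor G, had 25.1, 25.2 and 24.6 CPM in sog1-1 rab8d-2, 23.9, 23.2 and 25.5 CPM in rab8d-2, and 44.8, 45.4 and 44.9 CPM in WT. Both mutants were far below WT and overlapped each other (-0.85 ± 0.05 against WT, adjusted p = 8.29e-21; 0.04 ± 0.05 against rab8d-2, adjusted p = 0.498). The initiation factor FUG1 (-0.59 ± 0.06) and the ribosomal protein gene PRPL4 (RPL4; -0.70 ± 0.07) were lower too, and PRPL4 was lower in the double mutant than in rab8d-2 (-0.33 ± 0.08, adjusted p = 0.000291). The 1 gene that was higher, PRPL21 (0.23 on the log2 scale), lost its call without sog1-1 rab8d-2 replicate 2 or WT replicate 1.

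Of 16 tested genes for plastid chaperones and proteases, 1 was higher and 11 lower (median -0.26), against 2 higher and 8 lower in rab8d-2 (median -0.09). The higher one lost its call without sog1-1 rab8d-2 replicate 1 or 2 or WT replicate 1. FTSH1, a protease of the thylakoid, was lower in both mutants, at 37.8 ± 2.21 CPM in sog1-1 rab8d-2, 28.9 ± 1.93 CPM in rab8d-2 and 56.8 ± 2.68 CPM in WT. The plastid chaperone HSP90.5 (CR88) was lower in the double mutant and not called in rab8d-2, with 121 ± 3.37 CPM in sog1-1 rab8d-2, 168 ± 2.80 CPM in rab8d-2 and 167 ± 0.462 CPM in WT (-0.46 ± 0.03 against WT, adjusted p = 1.06e-18). Only 6 of 68 plastid-encoded genes passed the filter. Those with few counts in WT, such as ATCG00170 with 5 over the 3 WT libraries, passed through the mutants in which they are high. RNA was selected with oligo(dT), which plastid RNA mostly escapes. ATCG00190 had 3.14, 2.90 and 3.70 CPM in sog1-1 rab8d-2, 3.61, 4.21 and 2.92 CPM in rab8d-2, and 0.850, 1.41 and 0.702 CPM in WT.

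Most listed genes of the mitochondrial stress response were higher in the double mutant, while their summed level was lower. Of 15 genes, 11 were higher and 2 lower than in WT (median 0.67), against 9 higher and 3 lower in rab8d-2 (median 0.20). The sum was 756 to 770 TPM (reads scaled to transcript length and library size) in sog1-1 rab8d-2. It was 848 to 876 TPM in rab8d-2 and 840 to 878 TPM in WT. The list is known to answer to blocked mitochondrial respiration through the factors NAC013 and NAC017. AT2G21640, annotated as a marker of oxidative stress, had 17.9, 19.6 and 18.4 CPM in sog1-1 rab8d-2, 12.9, 14.0 and 13.6 CPM in rab8d-2, and 3.099, 2.315 and 3.161 CPM in WT. It was highest in the double mutant (2.70 ± 0.12 against WT, adjusted p = 7.38e-25; 0.46 ± 0.08 against rab8d-2, adjusted p = 6.57e-06). The external NADH dehydrogenase NDB2 behaved alike, with 234 ± 4.98 CPM in sog1-1 rab8d-2, 188 ± 1.69 CPM in rab8d-2 and 147 ± 5.57 CPM in WT (0.67 ± 0.03 against WT). NDB4, a related dehydrogenase, had 5.73, 6.57 and 6.99 CPM in sog1-1 rab8d-2, 7.85, 6.53 and 6.61 CPM in rab8d-2, and 0.550, 0.705 and 0.452 CPM in WT, with both mutants far above WT (3.49 ± 0.19, adjusted p = 1.53e-21; -0.12 ± 0.10 against rab8d-2). NAC013 was at 41.4 ± 2.05 CPM in sog1-1 rab8d-2, 40.9 ± 0.234 CPM in rab8d-2 and 22.9 ± 0.200 CPM in WT (0.85 ± 0.05). The alternative oxidase AOX1D and the internal dehydrogenase NDA1 were higher by 3.81 ± 0.54 and 3.07 ± 0.24 at low levels. DIC2, a dicarboxylate carrier of the inner membrane, went the other way (-1.21 ± 0.03, adjusted p = 9.08e-33).

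Other stress genes were lower or mixed. Of 7 cytosolic heat shock genes, 0 were higher and 5 lower than in WT (median -0.93), and 0 higher and 6 lower in rab8d-2 (median -0.54). One member was called higher without sog1-1 rab8d-2 replicate 1. DREB2A, a factor of heat and drought responses, had 23.3, 24.4 and 25.7 CPM in sog1-1 rab8d-2, 62.5, 59.4 and 57.8 CPM in rab8d-2, and 100.6, 104.7 and 108.1 CPM in WT (-2.09 ± 0.05, adjusted p = 1.7e-36). Of 9 genes of the unfolded protein response of the endoplasmic reticulum, 4 were higher and 1 lower, among them the factor BZIP60 (110 ± 3.197 CPM in sog1-1 rab8d-2, 111 ± 1.82 CPM in rab8d-2 and 87.9 ± 1.83 CPM in WT). The 14 oxidative stress genes had 6 higher and 7 lower, with the glutathione transferase GSTU24 at 0.70 ± 0.03 and the catalase CAT3 at -1.001 ± 0.03. The salicylate list had 1 of 6 tested genes higher and 4 lower, led by WRKY70 (4.48 ± 0.157 CPM in sog1-1 rab8d-2, 4.56 ± 0.555 CPM in rab8d-2 and 21.5 ± 0.815 CPM in WT).

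The clock genes made the double mutant differ from both other genotypes. All 8 genes with a peak around dawn were higher than in WT (median 1.75) and all 9 with a peak around dusk lower (median -1.12). In rab8d-2 against WT, 0 dawn genes were higher and 6 lower (median -0.51), and 2 dusk genes were higher and 5 lower (median -0.17). CCA1, a MYB factor of the morning loop, had 18.5, 19.3 and 19.6 CPM in sog1-1 rab8d-2, 0.674, 0.338 and 0.959 CPM in rab8d-2, and 1.20, 0.856 and 1.20 CPM in WT. The double mutant was far above the others (4.13 ± 0.13 against WT, adjusted p = 5.34e-31; 4.85 ± 0.14 against rab8d-2, adjusted p = 1e-31). Its partner LHY (13.8 ± 0.508 CPM in sog1-1 rab8d-2, 0.770 ± 0.125 CPM in rab8d-2 and 0.686 ± 0.118 CPM in WT) and the coactivator LNK2 (AT3G54500; 125 ± 3.81 CPM in sog1-1 rab8d-2, 10.6 ± 0.1499 CPM in rab8d-2 and 16.7 ± 1.03 CPM in WT) had the same pattern.

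ELF4, of the evening complex, had 27.3, 27.2 and 27.4 CPM in sog1-1 rab8d-2, 136.0, 121.2 and 122.7 CPM in rab8d-2, and 183, 187 and 164 CPM in WT (-2.70 ± 0.05, adjusted p = 1.1e-40). TOC1, the evening repressor of CCA1, was lower by -1.12 ± 0.03. JMJD5, a demethylase-like clock component, had 2.94, 3.77 and 3.65 CPM in sog1-1 rab8d-2, 61.3, 61.4 and 62.1 CPM in rab8d-2, and 62.9, 68.9 and 66.2 CPM in WT (-4.25 ± 0.07), and COR27, a repressor tied to light and cold, was at 1.46 ± 0.295 CPM in sog1-1 rab8d-2, 22.4 ± 1.06 CPM in rab8d-2 and 15.3 ± 0.624 CPM in WT. COR27 was chosen after its values were seen, among the lowest genes outside chromosome 1. The hour at which roots were collected is not in the labels. Whether the hour differed between genotypes was not tested, nor was its part in the photosynthesis, cold and other lists.

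Cold and dehydration genes were also high. Of 8 tested cold and dehydration effectors, 7 were higher and 0 lower than in WT (median 1.25), against 3 higher and 2 lower in rab8d-2 (median 0.14). LTI78 (RD29A), a dehydration-induced protein, had 380, 373 and 391 CPM in sog1-1 rab8d-2, 129, 126 and 126 CPM in rab8d-2, and 48.5, 49.3 and 47.3 CPM in WT (2.98 ± 0.03, adjusted p = 4.24e-49). Of the 6 CBF and DDF factors, which bind the promoters of such genes, 0 were higher and 5 lower (median -1.59), and in rab8d-2 0 were higher and 6 lower (median -1.56). CBF2 had 23.0 ± 1.82 CPM in sog1-1 rab8d-2, 17.9 ± 0.504 CPM in rab8d-2 and 52.6 ± 2.90 CPM in WT.

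Hypoxia and fermentation genes were high in the double mutant, with 11 of 12 higher and 1 lower than in WT (median 1.33), against 3 higher and 6 lower in rab8d-2 (median -0.19). ADH1, alcohol dehydrogenase, had 36.8, 37.9 and 35.2 CPM in sog1-1 rab8d-2, 2.02, 3.29 and 3.12 CPM in rab8d-2, and 10.697, 10.97 and 11.84 CPM in WT. The groups did not overlap, with rab8d-2 lowest and the double mutant highest (1.71 ± 0.07 against WT, adjusted p = 5.18e-26; 3.70 ± 0.09 against rab8d-2). PDC1 (AT4G33070), the pyruvate decarboxylase before it in the pathway, had 84.2, 86.5 and 82.8 CPM in sog1-1 rab8d-2, 18.4, 18.8 and 19.6 CPM in rab8d-2, and 15.5, 13.7 and 15.0 CPM in WT (2.52 ± 0.05, adjusted p = 7.75e-39). LBD41, a factor induced by low oxygen, was at 68.2 ± 1.52 CPM in sog1-1 rab8d-2, 19.7 ± 0.365 CPM in rab8d-2 and 22.5 ± 0.946 CPM in WT. The labels give the same age and day length for all genotypes, and the cause of these differences was not tested.

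Touch and wounding genes were lower, with 1 of 15 higher and 14 lower than in WT (median -0.85), and 2 higher and 12 lower in rab8d-2 (median -0.53). SZF1, a zinc finger factor, had 312, 313 and 311 CPM in sog1-1 rab8d-2, 461, 458 and 448 CPM in rab8d-2, and 724, 751 and 725 CPM in WT (-1.23 ± 0.02, adjusted p = 1.11e-38). The calmodulin-like gene TCH3 was the 1 that was higher (1.15 ± 0.03). The 16 tested jasmonate genes split into 7 higher and 7 lower. ORA47, a factor that drives jasmonate synthesis, had 7.95, 9.57 and 8.21 CPM in sog1-1 rab8d-2, 45.8, 50.4 and 50.1 CPM in rab8d-2, and 64.9, 66.6 and 65.0 CPM in WT (-2.93 ± 0.06), while the synthesis enzyme OPR3 was higher (1.01 ± 0.03).

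Hormone and nutrient lists moved less. Of 9 type-A response regulators, which cytokinin induces, 7 were higher and 0 lower (median 0.38), against 3 higher and 4 lower in rab8d-2 (median -0.09), led by ARR7 (24.1 ± 0.226 CPM in sog1-1 rab8d-2, 17.1 ± 2.24 CPM in rab8d-2 and 9.86 ± 0.759 CPM in WT). Of 12 auxin response genes 5 were higher and 2 lower, with 1 lower once sog1-1 rab8d-2 replicate 1 or 3 or WT replicate 1 was left out. GH3.3, an enzyme that conjugates auxin, had 5.02, 4.94 and 3.95 CPM in sog1-1 rab8d-2, 6.93, 7.64 and 7.24 CPM in rab8d-2, and 0.550, 0.654 and 0.702 CPM in WT (2.86 ± 0.20, adjusted p = 8.25e-17). The 10 tested iron deficiency genes had 3 higher and 3 lower. Of 9 tested phosphate starvation genes 4 were higher and 3 lower. Among these RNS1, a secreted ribonuclease, had 13.48, 12.02 and 12.52 CPM in sog1-1 rab8d-2, 2.70, 2.03 and 2.49 CPM in rab8d-2, and 0.200, 0.101 and 0.452 CPM in WT (5.62 ± 0.20), and the phosphatase PAP17 was lower (-1.47 ± 0.06).

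**Figure D4:**
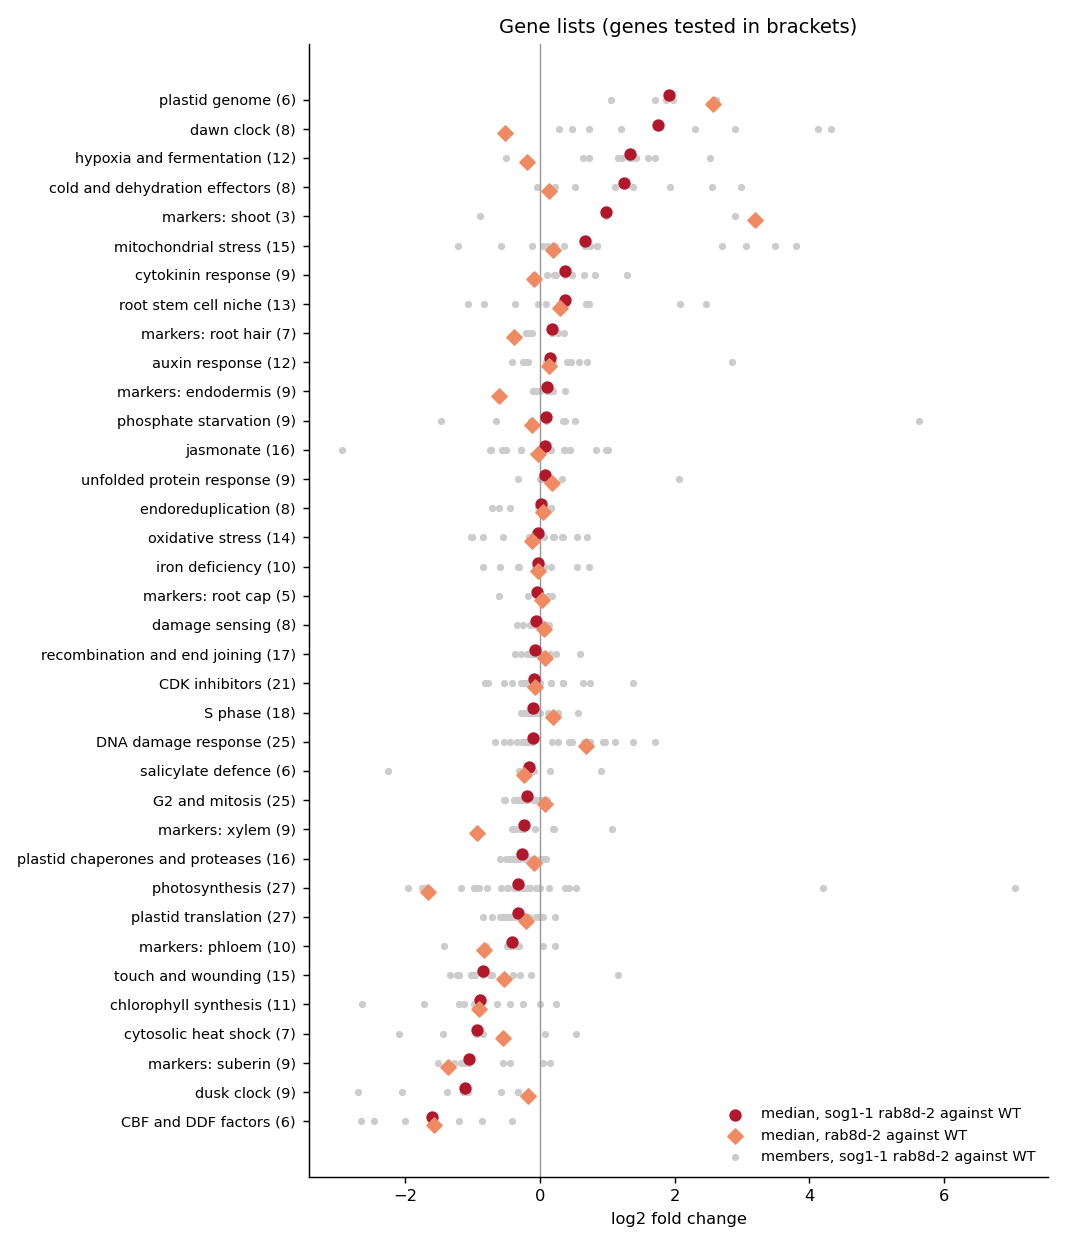
Median log2 fold change against WT of each gene list in sog1-1 rab8d-2 (dark red circles) and rab8d-2 (orange diamonds), with the members' values in sog1-1 rab8d-2 in grey and the number of genes tested in brackets, ordered by the median in the double mutant. Dawn clock, hypoxia and cold effector lists lie at 1.25 to 1.75 in sog1-1 rab8d-2 and the CBF and DDF factors at -1.59. Medians over the 6 plastid-encoded and 3 shoot genes that passed the filter are drawn only for completeness.

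More genes of the root stem cell niche were higher than lower against WT. Of 13 genes, 8 were higher and 3 lower than in WT (median 0.37), and in rab8d-2 10 were higher and 2 lower (median 0.30). Against rab8d-2 itself, the double mutant had 2 higher and 7 lower (median -0.24, beside 28.7% and 26% of all genes). Their summed level was 156 to 166 TPM in sog1-1 rab8d-2, 190 to 197 TPM in rab8d-2 and 175 to 182 TPM in WT. WOX5, the homeobox factor of the quiescent centre, had 4.71, 4.99 and 5.63 CPM in sog1-1 rab8d-2, 5.20, 4.64 and 5.22 CPM in rab8d-2, and 1.40, 1.21 and 1.00 CPM in WT. The mutants overlapped each other and lay above WT (2.08 ± 0.16, adjusted p = 1.24e-15; 0.02 ± 0.11 against rab8d-2, adjusted p = 0.872). UPB1, a factor that represses peroxidases at the end of the meristem, was lower in both mutants, with 18.1 ± 1.18 CPM in sog1-1 rab8d-2, 18.2 ± 1.103 CPM in rab8d-2 and 37.9 ± 1.34 CPM in WT (-1.07 ± 0.06). AT5G61890, an ERF factor of the same subfamily as ERF115, had 3.496, 3.667 and 3.751 CPM in sog1-1 rab8d-2, 9.92, 7.64 and 8.68 CPM in rab8d-2, and 0.650, 0.554 and 0.753 CPM in WT, between the other genotypes in the double mutant. PLT3 (AIL6), a PLETHORA factor of the meristem, was also between them (0.37 ± 0.05 against WT; -0.70 ± 0.04 against rab8d-2).

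Markers of the differentiated root showed 2 patterns. The suberin genes, which build the lipid barrier of the endodermis, were low in both mutants, with 1 of 9 higher and 7 lower in sog1-1 rab8d-2 (median -1.05) and 1 higher and 8 lower in rab8d-2 (median -1.36). Their summed level was 332 to 349 TPM in sog1-1 rab8d-2, 241 to 249 TPM in rab8d-2 and 482 to 496 TPM in WT. ABCG6, a suberin exporter, had 39.6, 40.2 and 38.7 CPM in sog1-1 rab8d-2, 26.3, 27.8 and 26.7 CPM in rab8d-2, and 114, 113 and 111 CPM in WT (-1.51 ± 0.04, adjusted p = 1.9e-32). By contrast, Casparian strip genes of the endodermis had 4 of 9 higher and 1 lower in sog1-1 rab8d-2 (median 0.11), against 0 higher and 9 lower in rab8d-2 (median -0.60). Their sums were 855 to 864 TPM in sog1-1 rab8d-2, 584 to 593 TPM in rab8d-2 and 824 to 863 TPM in WT. PER64, a peroxidase of the Casparian strip, was at 0.11 on the log2 scale in sog1-1 rab8d-2 and -0.60 in rab8d-2.

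The 9 xylem genes had 2 higher and 6 lower than in WT (median -0.24), against 0 higher and 8 lower in rab8d-2 (median -0.93), with CESA4, a cellulose synthase of secondary walls, at 60.7 ± 0.686 CPM in sog1-1 rab8d-2, 35.2 ± 0.641 CPM in rab8d-2 and 78.7 ± 1.78 CPM in WT. Of 10 phloem genes 0 were higher and 7 lower in each mutant, with medians of -0.41 in sog1-1 rab8d-2 and -0.83 in rab8d-2. SWEET11, a sucrose exporter, had 19.81, 20.22 and 17.08 CPM in sog1-1 rab8d-2, 1.16, 2.08 and 1.39 CPM in rab8d-2, and 53.6, 48.1 and 51.3 CPM in WT (-1.42 ± 0.06 against WT; 3.62 ± 0.13 against rab8d-2). Root hair genes had 4 of 7 higher and 2 lower, with 1 lower once sog1-1 rab8d-2 replicate 2 or 3 or WT replicate 1 was left out. The root cap list had 1 of 5 higher and 1 lower, and the higher one was lost without sog1-1 rab8d-2 replicate 1 or WT replicate 1 or 3. Of 8 shoot markers 3 passed the filter, with sums over the list of 4.48 to 4.96 TPM in sog1-1 rab8d-2, 7.90 to 8.57 TPM in rab8d-2 and 3.96 to 4.48 TPM in WT. The meristem gene STM had 0 counts in sog1-1 rab8d-2, 4 in rab8d-2 and 0 in WT. Of the 3 tested, ATML1, an epidermal factor, was higher in both mutants (2.90 ± 0.19 in sog1-1 rab8d-2). CER1 was lower in both (-0.89 ± 0.14 in sog1-1 rab8d-2 and -1.65 ± 0.16 in rab8d-2). KCS6 was higher in both (0.98 ± 0.36 and 3.19 ± 0.25 in the same order), though its sog1-1 rab8d-2 and WT libraries overlapped. The part of cell type shares in the other results was not tested.

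Outside chromosome 1, several of the largest increases were present in both mutants. LTP5, a lipid transfer protein, had 32.2, 33.3 and 35.8 CPM in sog1-1 rab8d-2, 30.8, 34.6 and 34.1 CPM in rab8d-2, and 1.85, 1.36 and 0.803 CPM in WT (4.65 ± 0.11 against WT, adjusted p = 2.17e-35; 0.03 ± 0.06 against rab8d-2). WRKY28, a stress transcription factor, was at 4.33 ± 0.204 CPM in sog1-1 rab8d-2, 7.53 ± 0.450 CPM in rab8d-2 and 0.100 ± 0.0873 CPM in WT. BCAT4, an aminotransferase of methionine chain elongation, had 45.7 ± 2.14 CPM in sog1-1 rab8d-2, 22.3 ± 0.611 CPM in rab8d-2 and 1.56 ± 0.356 CPM in WT. AT2G04050, a MATE efflux carrier, had 26.3 ± 0.501 CPM in sog1-1 rab8d-2, 11.3 ± 0.625 CPM in rab8d-2 and 0.652 ± 0.330 CPM in WT. LTP5 and BCAT4 were chosen after their values were seen, among the highest genes outside chromosome 1.

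On chromosome 1, which carries SOG1, the double mutant differed from WT in a further way. A set of 22 genes had 0 counts over the 3 libraries of one genotype and at least 30 over those of the other in sog1-1 rab8d-2 against WT, and 20 of them lie on chromosome 1. Of these 20, 12 had no counts in sog1-1 rab8d-2 and 8 had none in WT, of which 6 had none in rab8d-2 either. In rab8d-2 against WT, 2 such genes lay on chromosome 1. Called genes with at least an 8-fold change made up 1.34% of the 5285 genes tested on chromosome 1 (71 genes), against 0.597% to 0.731% on the other chromosomes. The thresholds of this paragraph, the counts by chromosome and the bins given below were set after the genes with 0 counts had been seen. They describe these data and test nothing.

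AT1G27580, an F-box protein gene, had 80.4, 76.5 and 76.8 CPM in sog1-1 rab8d-2, 0.144, 0.338 and 0.479 CPM in rab8d-2, and no counts in WT, and was at least 1553-fold higher in the double mutant than in WT (floor of 3 counts over the group). AT1G35115, annotated as a pseudogene, had no counts in sog1-1 rab8d-2, 5256 in rab8d-2 and 4535 in WT, and was at least 1494-fold lower. The retrotransposon SADHU1-2 was at least 785-fold lower, with 0 counts in sog1-1 rab8d-2, 2958 in rab8d-2 and 2382 in WT. AT1G24388, which encodes an uncharacterised protein, was at least 633-fold higher, with 1876 counts in sog1-1 rab8d-2 and 0 in both rab8d-2 and WT. AT1G25055, another F-box gene, had 17.38, 34.89 and 1.72 CPM in the 3 sog1-1 rab8d-2 libraries, an uneven spread in a family of similar genes between which reads may be split. AT1G27180, annotated as a transmembrane receptor that binds ATP, had 0.659, 0.662 and 0.710 CPM in sog1-1 rab8d-2, 29.5, 28.4 and 31.7 CPM in rab8d-2, and 34.6, 33.7 and 38.6 CPM in WT. MRD1 was lower in both mutants, at 0.355 ± 0.152 CPM in sog1-1 rab8d-2, 6.59 ± 0.771 CPM in rab8d-2 and 36.6 ± 1.18 CPM in WT.

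**Figure D5:**
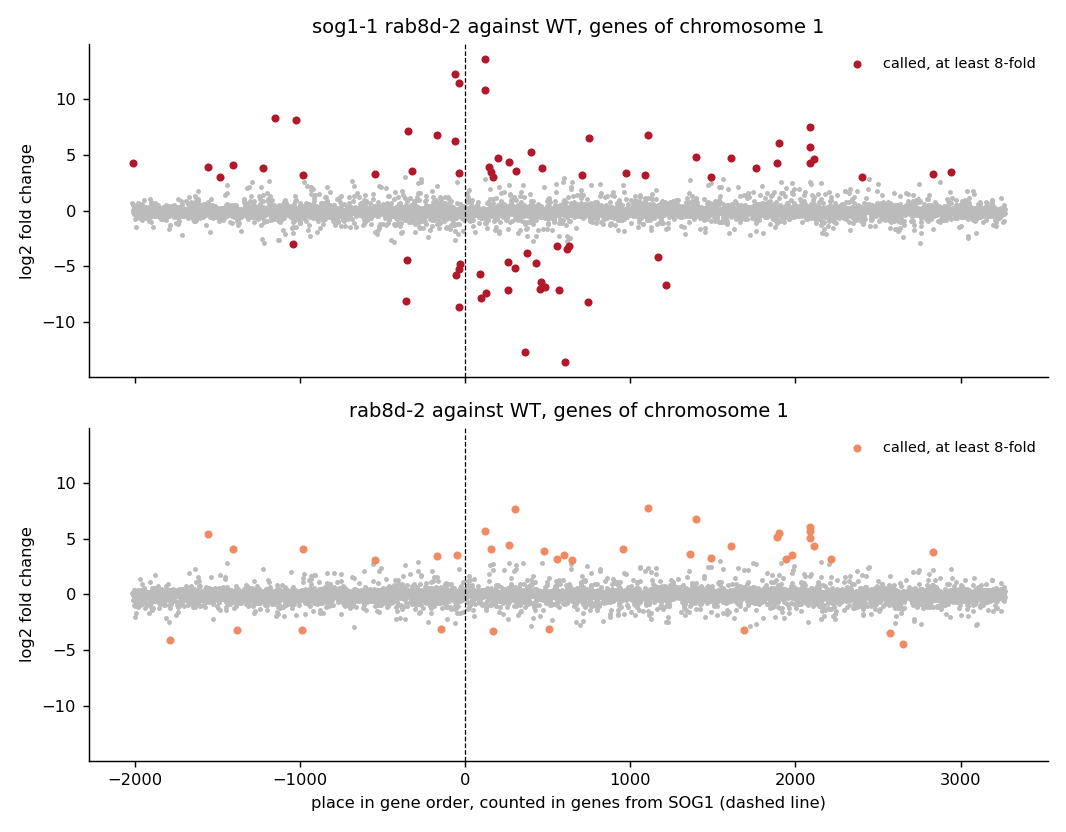
Log2 fold change against WT (vertical axes) of the genes tested on chromosome 1 by their place in gene order, counted in genes from SOG1 (dashed line), in sog1-1 rab8d-2 (top) and rab8d-2 (bottom), with called genes of at least an 8-fold change in colour. The 2 bins of 500 tested genes around and after SOG1 hold 18 and 21 such genes in sog1-1 rab8d-2 and 6 and 7 in rab8d-2; fitted values of genes with 0 counts in a genotype depend on the prior count and are no bounds.

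These genes lay mostly around SOG1. In bins of 500 tested genes along gene order, the bin centred on SOG1 held 18 called genes of at least 8-fold and the next one 21 in sog1-1 rab8d-2 against WT, against 6 and 7 in rab8d-2 against WT, and every other bin held 7 or fewer in sog1-1 rab8d-2. Among the 100 genes on each side of SOG1, 24 of 162 tested genes changed at least 2-fold against WT (14.8%, beside 8.24% of all genes). The same window held 19 (11.7%, beside 9.42%) in rab8d-2 against WT and 21 (13.0%, beside 4.91%) in sog1-1 rab8d-2 against rab8d-2. Around RAB8D on chromosome 4, 14 of 150 tested genes changed at least 2-fold in sog1-1 rab8d-2 (9.33%). Whether DNA inherited with the sog1-1 allele differs from Col in this stretch was not tested, and the labels do not give the line in which sog1-1 arose. Without the genes of chromosome 1, a setting added after the data were seen, 715 genes were higher and 422 lower at least 2-fold than in WT.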

How the data were processed

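The authors deposited estimated counts, TPM and FPKM per gene for 18 root libraries; RSEM 1.3.1 made such values, per the submitters' processing notes. Aligner, genome build and strand setting: not given in the sources used here. Coordinates, sequences and promoters were therefore left out. Counts were rounded to whole numbers and fitted with edgeR 4.0.16 (R 4.3.3): TMM scaling, edgeR's expression filter (19981 of 25537 genes kept), 1 mean per genotype over all 18 libraries, the quasi-likelihood test and Benjamini-Hochberg adjustment. CPM uses TMM library sizes. The deposited TPM served for sums over lists, and the deposited FPKM was not used. Names and gene order came from RefSeq's TAIR10.1 table, which matched 25462 identifiers. The steps were tested on simulated counts.

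Alternatives were RLE and upper quartile scaling, DESeq2 1.42.0, no filter, the genotypes compared alone, the replicate number as a block and leaving out each library. Genes named were RAB8D, SOG1, the damage list, the 10 highest and 10 lowest called genes with separate libraries and a mean log2 CPM of at least 1, and up to 4 members per other list by smallest p. Further members were named from their lists, after their values were seen, to show the range. One gene of the damage list, kept in its counts and median, is not reported here. The lists and the comparison were chosen with earlier results of these data known.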

Additional observations from a re-analysis of the deposited data

How the results depend on the processing

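The numbers of genes called in the 3 comparisons stayed within 1.5 times their value under each scaling, tool, filter, fit and left-out library tried. For sog1-1 rab8d-2 against WT, 5346 to 5846 genes were higher and 5370 to 5761 lower when 1 library was left out. With the genes of chromosome 1 left out of the count, an alternative added after the data were seen, 422 genes were lower at least 2-fold in place of 658. Upper quartile scaling moved the share of higher genes among those called to 54.6%, against 49.7%.

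The replicate number used as a block gave 11570 called genes in place of 11601, and same-numbered libraries did not deviate together (correlations of -0.067 to 0.037), so the numbers were not taken as pairs. Among the 184 genes named by the rules set beforehand, 16 changed their call under some alternative and none changed direction with a call. Most of the 184 were chosen for a small p or a large change in this same comparison. Their calls were likely to stay, so these numbers are no independent check. Genes named only after their values were seen were not part of this count. The block ended the call of NAC085 (adjusted p = 0.0548) and of no other gene among these 184. Genes with few counts, such as SMR5, NAC085, ERF115 and AOX1D, have wide errors at this depth.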
